A study of Homo sapiens with 18 samples.

Results

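MiaPaCa2 and Panc1, labelled resistant to dasatinib, were set against Panc0403 and Panc0504, labelled sensitive to it, with the members chosen by their cell line label. The comparison used 12 of the 18 arrays of the series, 6 resistant and 6 sensitive, from 4 of its 6 lines. All 4 are established human pancreatic cancer lines, most often a ductal adenocarcinoma (PDAC). Response is a label of the line, and no drug exposure is named, so every value is the level of a line in culture. Each line had replicates 1, 2 and 3, and nothing shows that they came from separate cultures. Total RNA was read on Illumina HT-12 v4 arrays, and every level below is a normalized log2 intensity. MiaPaCa2 and Panc1 shared 1 slide, and Panc0403 and Panc0504 shared another, so slide and response cannot be told apart in any result.

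Dasatinib blocks SRC family kinases, ABL kinases and several Eph and discoidin receptors, which pass signals from growth factor receptors and from contacts with the matrix. Pancreatic cancer lines are commonly placed along an axis from epithelial to mesenchymal. Epithelial cells join each other through E-cadherin, claudins and desmosomes and build keratin filaments. Mesenchymal cells lose these junctions, use vimentin in place of many keratins and secrete a collagen matrix.

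The 12 arrays resembled each other in signal: 31.7% to 35% of 48107 probes were detected (detection p under 0.01), and the median raw intensity ran from 110.4 to 135.2. Replicate 2 stood apart in every line. Within a line, arrays 1 and 3 gave r = 0.995 to 0.996 over 11597 genes, whereas array 2 gave 0.851 to 0.897 with them. Between lines of 1 slide, array 2 gave 0.990 to 0.991 and arrays 1 and 3 gave 0.964 to 0.983, and resistant with sensitive arrays gave 0.745 to 0.824. These correlations run over genes of single arrays and carry no test. Array 2 of a line was therefore closer to array 2 of the other line of its slide than to arrays 1 and 3 of its own line. Whether the labels of array 2 hold was not tested, and every line mean and every replicate 2 value rests on them. The p-values from line means measure only the spread between the lines of a slide. Fits to single arrays measure the spread between arrays instead. An exact test of 2 lines against 2 cannot go below 0.333. The contrast was computed for 4 line means (3 arrays averaged per line), for replicates 1 and 3, and for replicate 2 apart, and the sets are given side by side where they differ most. The labelled cell type was checked against its markers. The keratins KRT8, KRT18 and KRT19 gave a detected signal on all 6 resistant and all 6 sensitive arrays, but EPCAM and CDH1 on 2 and 6. None of 4 endothelial markers was detected on a resistant array, and 1 of 4 was on a sensitive one. The leukocyte markers PTPRC and CD3E were detected on 0 arrays, and CD68 and CD14 on all 12. In bulk RNA, fewer cells of a type and less RNA per cell cannot be told apart.

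Both sets of arrays held large differences between the responses, and they shared only part of them. A gene was called at a Benjamini-Hochberg adjusted p under 0.05 in limma and a log2 difference of at least 1, with every difference taken as resistant minus sensitive. Over 4 line means, 1474 genes were called higher (12.7%) and 1601 lower (13.8%) in the resistant lines. In replicates 1 and 3 the calls were 1755 higher (15.1%) and 1844 lower (15.9%), and in replicate 2 they were 1830 higher (15.8%) and 1624 lower (14%). Of these, 593 higher genes (5.11%) and 720 lower genes (6.21%) were called in all 3 contrasts, 1313 in all (11.3%). The line means average the arrays of both sets, and these are all the genes called in both sets in 1 direction. Here and below, called in all 3 contrasts therefore means called in both sets, and the line means add no separate support. The shared higher genes were 33.8% of the higher calls of replicates 1 and 3 and 32.4% of those of replicate 2. For lower genes the shares were 39.0% and 44.3%. A further 300 genes (2.59%) were called in both sets in opposite directions. The difference between the sets was itself called for 4311 genes (37.2%). When all 4 pairings of 1 resistant and 1 sensitive line had to pass singly, 1346 genes were called (11.6%). That count was 296 without replicate 1, 302 without replicate 3 and 2660 without replicate 2. The pair fit enters arrays singly, so its p-values measure the spread between arrays of a line, the replicate 2 difference included. The calls of replicates 1 and 3 fell to 1765 without MiaPaCa2 and 1673 without Panc1. In those fits the lone resistant line is assumed to vary like the sensitive lines.

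**Figure D1:**
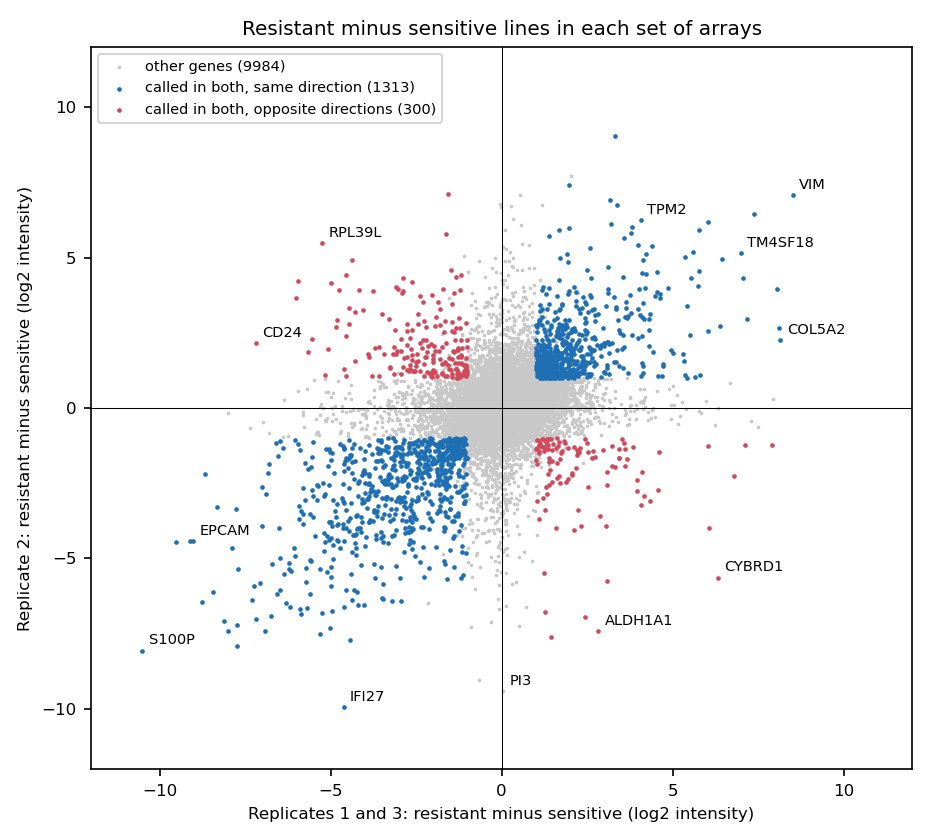
Difference of each gene between resistant and sensitive lines (log2 intensity) in replicates 1 and 3 (horizontal axis) and in replicate 2 (vertical axis), 1 point per gene. The 1313 genes called in both sets in 1 direction lie in the lower left and upper right, and the 300 called in opposite directions lie in the other corners.

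The genes most strongly higher in MiaPaCa2 and Panc1 in both sets were led by VIM, which encodes the intermediate filament vimentin. Named here are the 8 higher and 8 lower genes with the largest smaller difference of both sets. VIM stood at 15 to 15.12 on replicates 1 and 3 of the resistant lines and at 15.17 and 14.62 on their replicate 2. In the sensitive lines it stood at 6.18 to 6.87 and at 7.89 and 7.74. The difference was 8.03 ± 0.19 (SE) over 4 line means (adjusted p = 8.97e-05), 8.51 in replicates 1 and 3 and 7.08 in replicate 2. No resistant array came near a sensitive one. CBS, which makes cystathionine from homocysteine, lay at 11.03 to 12.49 on the 6 resistant arrays and was detected on 0 of 6 sensitive arrays, at 4.79 to 4.89. It was at least 56.7-fold higher in the resistant lines. Such a bound sets the mean of the bright group against a floor, the larger on each array of the gene's own value and the lowest value of a detected probe. Where a response did not detect a gene, a plain difference depends on the background level. JAM3, a junctional adhesion molecule of the immunoglobulin family, was at 10.82 to 11.33 against 4.77 to 5.45 and at least 32.0-fold higher. TM4SF18, a tetraspan membrane protein, was at least 70.8-fold higher. For RNF182, a RING finger protein, TUBB6, a beta-tubulin, and PRRX2, a homeobox factor of mesenchyme, the bounds were 32.1-fold, 19.2-fold and 23.3-fold. All 5 of these genes besides CBS were detected on 0 sensitive arrays and on 6 resistant ones. DENND5B differed by 5.24 and was detected on 4 of 6 sensitive arrays.

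The lower genes were headed by S100P, a small S100 family protein that pancreatic tumours commonly make. It was at 4.67 to 4.86 on replicates 1 and 3 of the resistant lines and at 5.94 and 6.18 on replicate 2. Sensitive arrays read 14.85 to 15.68 and 13.80 and 14.44, near the top of the scale. S100P was undetected on replicates 1 and 3 of the resistant lines and at least 582-fold lower there (limma, 4 line means, adjusted p = 8.97e-05). In replicate 2, where all 4 arrays detected it, the difference was -8.06. TSPAN8, a tetraspanin of epithelial tumours, was at 4.86 to 5.15 on the resistant arrays, detected on 0 of 6, and at 12.57 to 13.13 on the sensitive ones. It was at least 111-fold lower in the resistant lines. PHACTR3, a regulator of protein phosphatase 1 and actin, was at least 81.8-fold lower, LAD1, an anchoring filament protein, 73.1-fold, MPZL2, an adhesion molecule, 61.1-fold, and MAL2, which acts in apical transport, 52.7-fold. LCN2, the secreted siderophore binder lipocalin 2, was detected on all 12 arrays and differed by -7.81 ± 0.45. MSLN, the surface protein mesothelin, was detected on 1 of 6 resistant arrays (5.18 to 6.42) and on 6 of 6 sensitive arrays (13.24 to 13.85). Among the 16 genes, the interaction between the sets was called for VIM, TM4SF18, PRRX2, S100P and MSLN.

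**Figure D2:**
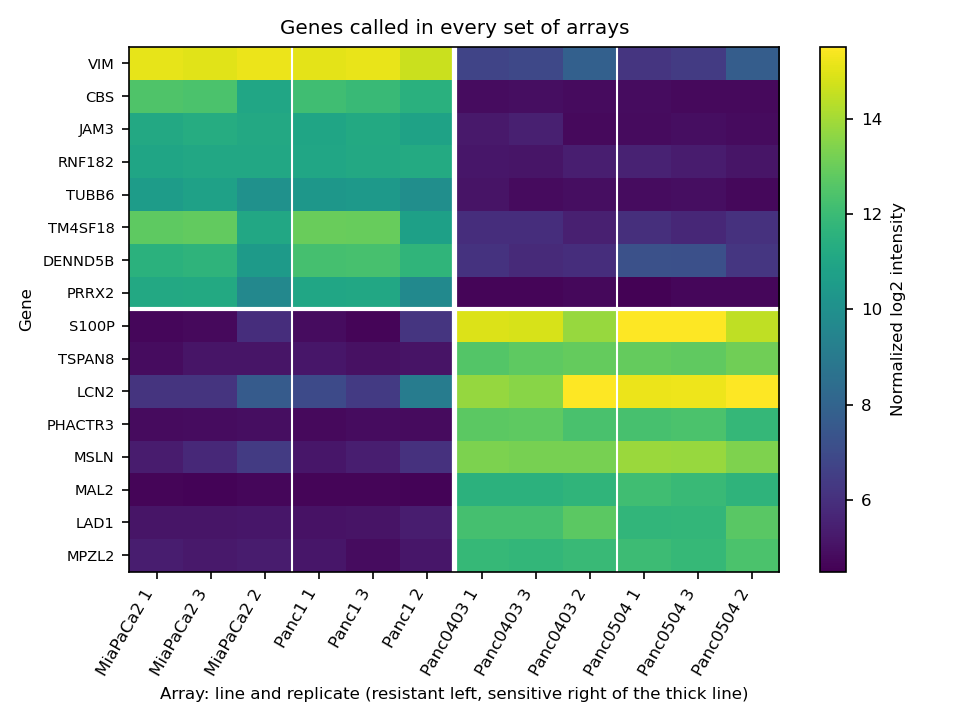
Normalized log2 intensity of the 8 higher (upper block) and 8 lower genes (lower block), by array, with resistant lines left of sensitive lines and replicate 2 last within each line. The blocks are bright and dark in turn, with VIM at 14.62 or above on the 6 resistant arrays and at 7.89 or below on the 6 sensitive arrays.

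SU8686 (resistant) and Panc1005 (sensitive) lay together on the remaining slide and share no array with the 4 lines. Of the 593 genes higher in all 3 contrasts, 31 (5.23%) were also higher in SU8686 than in Panc1005 by at least 1 over 3 arrays each, and 16 (2.70%) were lower. Of the 720 lower genes, 33 (4.58%) were lower in SU8686 by at least 1 and 90 (12.5%) were higher. Over all genes with a positive difference in the 4 lines, 2.56% were higher in SU8686 by at least 1 and 2.17% lower, and over those with a negative difference 2.71% were lower and 6.57% higher. In replicates 1 and 3 of that pair, 4.89% of higher and 1.39% of lower genes went the same way by at least 1. The shares going the opposite way were 1.18% and 8.75%. In replicate 2, 12.6% and 15.8% went the same way, and 10.6% and 22.8% the opposite way. Over all genes, the same-way shares were 2.52% and 0.93% in replicates 1 and 3, and 8.65% and 9.65% in replicate 2. The opposite-way shares over all genes were 1.37% and 4.998% in replicates 1 and 3, and 9.2% and 12.1% in replicate 2. VIM differed by -0.51 in that pair and S100P by 1.06, opposite in sign to the 4 lines. These are shares of genes in single line pairs and carry no test.

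Genes of epithelial junctions and keratins were mostly lower in MiaPaCa2 and Panc1. Of 35 listed genes 29 were measured well enough to be tested, 26 were called lower over 4 line means and 0 higher, and their median difference was -2.69, against 0.07 over all genes. In replicates 1 and 3 the counts were 27 lower and 0 higher with a median of -4.09, and in replicate 2 they were 17 lower and 1 higher with a median of -1.92. In this and every other list, shares called lower in these contrasts can be read against the 13.8%, 15.9% and 14% of all genes. Shares called higher can be read against 12.7%, 15.1% and 15.8%. In all 3 contrasts 17 members were lower. A gene that passed the detection filter only through the sensitive arrays had to be bright there, so these counts describe the members that passed.

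CDH1 encodes E-cadherin, the adhesion protein of epithelial contacts. It was undetected on replicates 1 and 3 of MiaPaCa2 and Panc1 (4.82 to 5.06), and replicate 2 read 9.24 and 8.94. In the sensitive lines it lay at 12.40 to 12.90 and at 12.29 and 12.61. The difference was -7.75 in replicates 1 and 3, at least 98.4-fold, and -3.36 in replicate 2, where the gene was on in both responses. EPCAM, the adhesion molecule that marks carcinoma cells, followed the same layout, with 4.87 to 5.37 and 9.13 and 9.10 in the resistant lines against 14.07 to 14.23 and 13.46 and 13.64 in the sensitive lines. EPCAM was at least 272-fold lower in replicates 1 and 3, and in replicate 2 it differed by -4.44 (limma, 4 line means, adjusted p = 8.97e-05). KRT7, a keratin of ductal epithelium, was at 4.61 to 4.84 on replicates 1 and 3 and at 6.10 and 7.25 on replicate 2 of the resistant lines, against 12.78 to 13.27 on the 6 sensitive arrays. RAB25, a small GTPase of apical recycling, stayed undetected on all 6 resistant arrays and was at least 62.7-fold lower. The groups did not overlap for any of these 4 genes. Non-overlap of 6 with 6 arrays was met by 27.5% of all genes.

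Within the list, KRT8, KRT18 and KRT19 were detected on every array, at unequal levels. KRT8 was at 11.45 to 11.81 on replicates 1 and 3 and at 13.05 and 13.49 on replicate 2 of the resistant lines, against 13.01 to 13.75 in the sensitive lines. KRT19 was at 10.51 to 11.08 in replicates 1 and 3 of the resistant lines and at 14.46 and 13.68 in replicate 2, against 14.20 to 14.96 in the sensitive lines. Its difference was -4.09 in replicates 1 and 3 and -0.19 in replicate 2, where it was not called (limma, adjusted p = 0.568). KRT18 read 7.04 to 7.50 on replicates 1 and 3 of the resistant lines, against 8.27 to 8.88 in the sensitive lines. It was called in replicates 1 and 3 (-1.23) but missed the minimum difference over 4 line means (-0.96). CLDN3, a tight junction claudin, was at least 9.95-fold lower in replicates 1 and 3, and in replicate 2 1 of the 4 arrays detected it, that of Panc1 (6.71), so no direction is given there. The serine protease inhibitor SPINT2 differed by -2.99 and 0.53. CRB3, a polarity protein, and DSG2, a desmosomal cadherin, differed by -4.02 and -2.14 over 4 line means and were lower in all 3 contrasts.

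**Figure D3:**
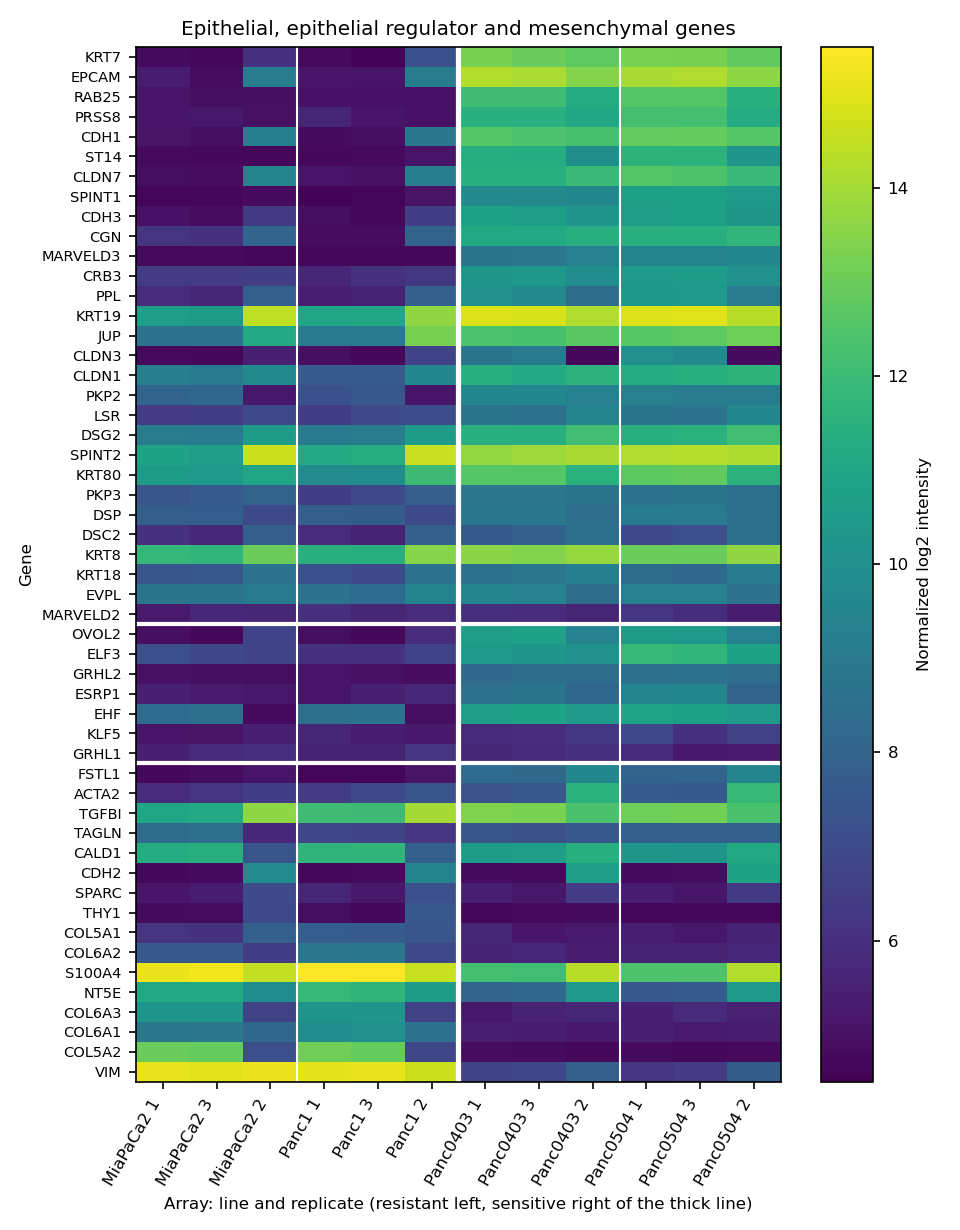
Normalized log2 intensity of the tested members of 3 lists by array: epithelial junctions and keratins (top block), epithelial regulators (middle) and mesenchymal genes (bottom), each ordered by difference, with resistant lines left of sensitive lines. The top and middle blocks are darker on the left for most genes, and replicate 2 of MiaPaCa2 and Panc1 is brighter than replicates 1 and 3 for CDH1, EPCAM, CLDN7, KRT19 and SPINT2.

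Because 17 members of this list were lower together, their promoters were searched for the E-box CACCTG, the sequence that SNAIL, SLUG and ZEB repressors are known to bind, on both strands (reverse complement CAGGTG). RefSeq promoters on GRCh38.p14, from 250 bases before to 50 after the gene start, were found for 9 of the 17, and 4 of them (44.4%) held the motif, against 20.6% of 27305 promoters. Of the 8 higher genes above 7 had a promoter in the table and 0 held it, and of the 8 lower genes 4 had one and 3 held it. AACCNGTT, a motif of grainyhead factors, stood in 1 of the 9 and in 1.73% of all promoters. Of the 4 holders, CRB3 had the most matches, and RAB25, DSG2 and DSP, which encodes desmoplakin, had 2 each. Shown are CRB3, RAB25 and DSG2, with each match in capitals.
CRB3, chr19:6464021-6464320, + strand: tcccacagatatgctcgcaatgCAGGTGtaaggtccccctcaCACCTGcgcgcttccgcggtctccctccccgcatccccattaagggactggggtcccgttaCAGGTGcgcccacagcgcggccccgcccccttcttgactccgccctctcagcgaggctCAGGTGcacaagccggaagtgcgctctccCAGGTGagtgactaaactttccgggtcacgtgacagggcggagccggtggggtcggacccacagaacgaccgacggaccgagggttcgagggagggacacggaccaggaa
RAB25, chr1:156060910-156061209, + strand: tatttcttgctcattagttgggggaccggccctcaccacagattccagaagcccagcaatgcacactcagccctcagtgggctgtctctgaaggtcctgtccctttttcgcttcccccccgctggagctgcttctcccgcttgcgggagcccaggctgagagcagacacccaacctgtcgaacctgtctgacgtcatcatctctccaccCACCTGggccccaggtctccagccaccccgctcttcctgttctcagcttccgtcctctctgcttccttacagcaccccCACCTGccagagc
DSG2, chr18:31497927-31498226, + strand: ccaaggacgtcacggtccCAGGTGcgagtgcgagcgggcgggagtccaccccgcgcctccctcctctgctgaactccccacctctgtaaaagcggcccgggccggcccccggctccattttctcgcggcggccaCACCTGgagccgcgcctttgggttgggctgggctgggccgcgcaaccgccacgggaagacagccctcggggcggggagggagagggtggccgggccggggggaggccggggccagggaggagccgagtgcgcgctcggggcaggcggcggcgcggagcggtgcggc
CRB3 held 5 matches, with first bases at -228, -208, -147, -89 and -60 from the gene start. The pair in RAB25 began at -41 and 37. In DSG2 the matches began at -232 and -116. A match is a description of the letters and not a bound site.

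The transcription factors that maintain epithelial genes were lower as well. Of 7 tested regulators 5 were called lower and 0 higher over 4 line means and in replicates 1 and 3, and 6 were lower in replicate 2. OVOL2, a zinc finger repressor of mesenchymal genes, was at 4.73 to 4.94 in replicates 1 and 3 and at 6.72 and 5.89 in replicate 2 of the resistant lines, against 10.43 to 10.80 and 9.38 and 9.32 in the sensitive lines. ELF3, an ETS factor of epithelia, was detected everywhere and differed by -4.25 ± 0.45. GRHL2, a grainyhead factor that activates CDH1, was detected on 0 resistant arrays (4.87 to 5.14) and on all sensitive ones (8.27 to 8.64), at least 5.29-fold lower. The bounds were 5.26-fold in replicates 1 and 3 and 5.34-fold in replicate 2. EHF, another ETS factor, was detected on replicates 1 and 3 of the resistant lines (8.34 to 8.68) and not on replicate 2 (4.83 and 4.89), against 10.46 to 10.91 in the sensitive lines. Of 6 pancreatic lineage regulators 1 was called higher and 3 lower over 4 line means, with 1 and 3 in replicates 1 and 3 and 2 and 2 in replicate 2. FOXA1 differed by -6 ± 0.31 and was lower in all 3 contrasts. FOXA2, its paralogue in gut and pancreas endoderm, was undetected on replicates 1 and 3 of the resistant lines (4.89 to 5.27) but at 12.57 and 12.72 on replicate 2, against 9.55 to 10.27 on the sensitive arrays. It was called lower in replicates 1 and 3, at least 14.3-fold, and higher in replicate 2 (2.93). Its 4-line difference of -2.24 lost its call without replicate 1 (-0.96) or replicate 3 (-0.93). With single arrays and the line as a random block FOXA2 was not called either (limma, adjusted p = 0.123, and 0.115 with a replicate block). CDX2, the intestinal homeobox factor, was detected on 6 resistant and 0 sensitive arrays and at least 2.26-fold higher.

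The mesenchymal list did not move in 1 direction. Of 16 tested members 8 were called higher and 2 lower over 4 line means, with 8 higher and 3 lower in replicates 1 and 3 and 8 higher and 5 lower in replicate 2. VIM and the collagens COL5A2, COL6A1, COL6A2 and COL6A3 were higher in all 3 contrasts. COL5A2 stood at 12.88 to 13.10 on replicates 1 and 3 of the resistant lines and at 7.19 and 6.85 on replicate 2, and it was detected on 0 of 6 sensitive arrays. It was at least 117-fold higher in replicates 1 and 3 and at least 1.92-fold in replicate 2. S100A4, a calcium-binding protein, and NT5E, the surface nucleotidase CD73, were higher by 3.14 and 3.60 in replicates 1 and 3 but were not called in replicate 2 (0.28 and -0.23). FSTL1, a secreted glycoprotein, and ACTA2, smooth muscle actin, went the other way and were lower in all 3 contrasts. FSTL1 was detected on 0 resistant arrays and was at least 6.05-fold lower.

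CDH2, the N-cadherin that mesenchymal cells use, was detected only on replicate 2 of each of the 4 lines, at 9.79 and 9.42 in the resistant lines and at 10.67 and 10.86 in the sensitive lines. It was called lower in replicate 2 (-1.16). Of 9 transcription factors of the epithelial-mesenchymal transition on the array, SNAI2 alone was bright enough to be tested. SNAI2, the repressor SLUG, read 7.32 to 7.52 on replicates 1 and 3 and 4.71 and 4.79 on replicate 2 of the resistant lines. Sensitive arrays read 5.68 to 6.48 and then 10.39 and 10.05. It was higher in replicates 1 and 3 (1.23) and lower in replicate 2, at least 18.6-fold. Its 4-line difference of -1 reversed without replicate 2 (1.23) and lost its call under 7 other settings (-0.82 to -1). ZEB1 and FN1 (fibronectin) were detected on 0 resistant and 0 sensitive arrays. The fibroblast collagen COL1A2 was detected on replicates 1 and 3 of the resistant lines alone, at 12.95 to 13.74 and at least 150-fold higher there. The summed linear level of 5 fibroblast markers ran from 422 to 13887 on resistant arrays and from 204 to 435 on sensitive arrays. COL1A2 is itself 1 of these markers, so the sum is not separate from its level. PDGFRB was detected on 0 arrays, DCN on 1 and LUM on 0 resistant arrays. A part of fibroblasts in the collagen result was not tested.

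The kinases that dasatinib binds differed in both directions. Of 4 SRC family members tested, LYN and YES1 were called higher and FYN lower over 4 line means. FYN was detected on 0 of 6 resistant arrays (5.13 to 5.84) and on 6 of 6 sensitive arrays, at 7.94 to 8.16 in replicates 1 and 3 and 9.51 and 9.26 in replicate 2. It was at least 5.46-fold lower in the resistant lines and lower in all 3 contrasts (-3.07 ± 0.16 over 4 line means, limma adjusted p = 0.000275). LYN was at 11.29 to 11.94 and at 10.97 and 11.01 in the resistant lines, against 9.33 to 9.56 and 10.68 and 11.06 in the sensitive lines. The groups of LYN were apart in replicates 1 and 3 (2.18) and overlapped in replicate 2 (0.12, adjusted p = 0.595). YES1 differed by 1.02 ± 0.17 and SRC itself by -0.91 ± 0.15. SRC was at 9.20 to 10.01 on the resistant arrays and at 10.38 to 10.73 on the sensitive arrays, without overlap. SRC reached the minimum difference in replicate 2 (-1.42) and without replicate 3 (-1.09). YES1 lost its call under 7 settings, where it was 0.82 to 0.96.

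ABL1, the non-receptor kinase whose fusion with BCR is a target of dasatinib in leukaemia, was higher by 1.05 ± 0.14 over 4 line means. It was at 10.03 to 10.13 and at 9.46 and 9.61 in the resistant lines, against 8.85 to 8.91 and 8.72 and 8.90 in the sensitive lines. ABL1 sat just past the minimum difference and lost its call under 5 settings (0.92 to 1). Over the 15 tested ABL, Eph, DDR and other dasatinib-binding kinases, 4 were called higher and 6 lower over 4 line means. The counts were 3 and 6 in replicates 1 and 3 and 2 and 3 in replicate 2. As shares these were 26.7% and 40%, 20% and 40%, and 13.3% and 20%. Over all genes they were 12.7% and 13.8%, 15.1% and 15.9%, and 15.8% and 14%, so replicate 2 lay near that share. EPHA1, an ephrin receptor of epithelia, was at 5.17 to 6 on the resistant arrays, detected on 1 of 6, against 9.51 to 9.91 on the sensitive arrays. In replicates 1 and 3, where no resistant array detected EPHA1, it was at least 12.2-fold lower. PTK6, an intracellular kinase of epithelia, differed by -4.27 in replicates 1 and 3 and by -1.76 in replicate 2. DDR1 and EPHA2 differed in replicates 1 and 3 and not in replicate 2. DDR1, a collagen receptor, was at 7.40 to 8.26 in replicates 1 and 3 of the resistant lines and 10.35 and 10.81 in replicate 2. The sensitive lines were at 10.22 to 11.20, and the differences were -3.29 and 0.15. Another detected probe of DDR1 differed by -0.39 over 4 line means, against -2.14 for the probe used. DDR2, its paralogue in connective tissue, was detected on replicates 1 and 3 of the resistant lines alone and was at least 6.87-fold higher there. EPHA2 differed by -2.02 in replicates 1 and 3 and by 0.52 in replicate 2. With 6 line means in 1 fit EPHA2 was not called (limma, adjusted p = 0.070). Its 4-line call (-1.17) was lost without replicate 1 (-0.69), without replicate 3 (-0.81), without Panc1 (-0.88) and without Panc0504 (-1.01, limma adjusted p = 0.054). EPHA4 was called in both sets in opposite directions, higher by 3.08 in replicates 1 and 3 and at least 5.16-fold lower in replicate 2.

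**Figure D4:**
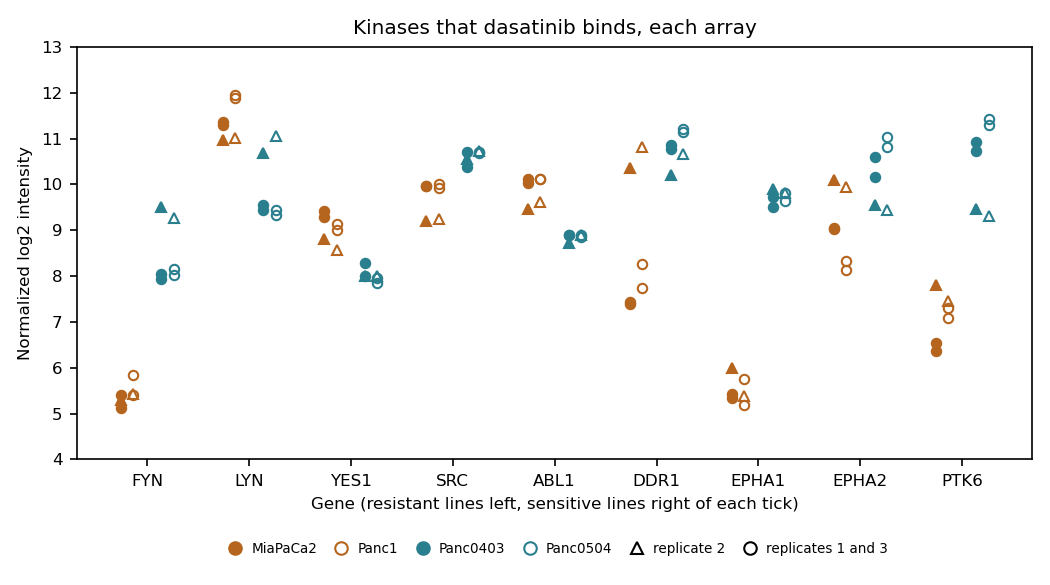
Normalized log2 intensity of 9 kinases that dasatinib binds on each of the 12 arrays, with resistant lines (brown) left of sensitive lines (teal) and replicate 2 as triangles. FYN and EPHA1 are apart in both sets, and the replicate 2 triangles of LYN, DDR1 and EPHA2 lie at similar heights in both responses.

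Receptors through which epithelial cells hold the basement membrane were lower in replicates 1 and 3. Of 13 tested integrins and laminins 8 were called lower and 1 higher over 4 line means, 10 and 1 in replicates 1 and 3, and 2 and 2 in replicate 2. The medians were -1.43, -1.87 and -0.03. LAMB3, a chain of laminin 332, was detected on 0 resistant arrays (4.76 to 5.12) against 10.23 to 11.78 on the sensitive arrays, a bound of 36.4-fold lower. ITGB4, the hemidesmosome integrin that binds this laminin, was at 7.61 to 9.64 against 12.36 to 13.04 and lower in all 3 contrasts. ITGA2, a collagen receptor subunit, was at 5.34 to 5.99 in replicates 1 and 3 of the resistant lines and 10.43 and 10.46 in replicate 2, against 10.96 to 11.63 in the sensitive lines. In replicates 1 and 3 the gene was at least 41.4-fold lower, and it differed by -0.63 in replicate 2. ITGA5, the fibronectin receptor subunit, was the member called higher, by 1.80 over 4 line means and in all 3 contrasts. Of 20 focal adhesion adaptors and SRC substrates 3 were called higher and 3 lower. TNS4, a tensin of epithelia, differed by -1.89 and was called lower, and PTK2, the focal adhesion kinase, differed by -0.42 and was not called.

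Growth factor receptors and ligands were more often called lower than higher, with 7 lower and 2 higher of 19 over 4 line means, 8 and 2 in replicates 1 and 3 and 9 and 3 in replicate 2. TGFA, the EGFR ligand transforming growth factor alpha, was detected on 0 resistant arrays (4.92 to 5.46), against 9.95 to 10.75 on the sensitive ones, and was at least 21.6-fold lower. ERBB3, a receptor of the EGFR family, differed by -4.08 ± 0.34. MST1R, the RON receptor, was at least 12-fold lower in replicates 1 and 3 and differed by -1.49 in replicate 2. EGFR itself was close in both responses, at 9.88 to 10.52 against 9.73 to 10.65, and its difference of -0.20 was not called (limma, adjusted p = 0.285). MET, the receptor for hepatocyte growth factor, differed by -2.55 in replicates 1 and 3 and by -0.56 in replicate 2. AXL, a receptor of the TAM family, differed by -1.13 and lost its call without replicate 3 (-0.95) and without Panc0403 (-0.94). It also lost its call with the mean over detected probes (-0.998) and with 6 line means in 1 fit (limma, adjusted p = 0.092). Without Panc1, AXL was at -1.04 with an adjusted p of 0.058.

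Among 20 tested genes that the ERK pathway is known to induce, 4 were called higher and 9 lower over 4 line means, 3 and 8 in replicates 1 and 3 and 3 and 9 in replicate 2. The ERK phosphatases DUSP4, DUSP5 and DUSP6 were lower in all 3 contrasts. DUSP4 was undetected on all 6 resistant arrays (4.59 to 4.67), against 8.44 to 9.41 on the sensitive ones, at least 7.72-fold lower. DUSP6 was at least 16.9-fold lower in replicates 1 and 3 and differed by -1.20 in replicate 2, and DUSP5 differed by -4.61 and -1.34. The Sprouty genes SPRY2 and SPRY4, feedback inhibitors of the same pathway, were higher by 1.95 and 2.27 over 4 line means, and SPRY2 was called lower in replicate 2 (-1.37).

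Genes that define the classical subtype of pancreatic cancer were lower in MiaPaCa2 and Panc1, and so were genes of the basal-like subtype. Of 30 listed classical genes 17 were tested. Of these 15 were called lower and 0 higher over 4 line means, with a median of -3.02, and 10 were lower in all 3 contrasts. Of 23 listed basal-like genes 13 were tested. Of these 10 were lower and 0 higher, with a median of -2.96, and 7 were lower in all 3. A gene that passed the detection filter only through the sensitive arrays had to be bright there, so these counts describe the members that passed. CEACAM6, an adhesion molecule of gut epithelia, was detected on 0 resistant arrays (4.86 to 5.25). In the sensitive lines it stood at 14.45 to 14.81 on replicates 1 and 3 but at 9.53 and 9.14 on replicate 2, so its bound was 379-fold in replicates 1 and 3 and 10.1-fold in replicate 2. GPX2, a glutathione peroxidase of gut epithelium, was at 4.86 to 5.21 on the resistant arrays, against 13.39 to 14.22 and 11.37 and 11.73 in the sensitive lines, at least 128-fold lower. Among basal-like genes, CST6, a cysteine protease inhibitor, and SCEL, a protein of the cornified envelope, were undetected on the 6 resistant arrays and at least 38.8-fold and 21.7-fold lower. FGFBP1, a carrier of fibroblast growth factors, was at least 15.8-fold lower in replicates 1 and 3 and differed by -5.44 in replicate 2. Of 19 listed mucins and secreted products 14 were tested, with the same limit. Of these 11 were lower and 0 higher, among them SLPI, an antiprotease, which was at least 18.3-fold lower.

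Many stress and detoxification genes were called lower, the stress genes in replicates 1 and 3 and few of them in replicate 2. Of 23 targets of the integrated stress response 14 were called lower and 2 higher over 4 line means, 18 and 1 in replicates 1 and 3, and 3 and 4 in replicate 2. The medians were -1.49, -2.21 and 0.26. TRIB3, a pseudokinase induced by ATF4, was at 8.67 to 9.15 and at 9.78 and 10.29 in the resistant lines, against 13.01 to 13.73 and 10.94 and 10.97 in the sensitive lines. It differed by -4.49 in replicates 1 and 3 and by -0.92 in replicate 2. DDIT3, the stress factor CHOP, differed by -4.14 and -1.32. SLC7A11, the cystine transporter, went undetected in the resistant lines, with lower bounds of 14.8-fold in replicates 1 and 3 and 1.79-fold in replicate 2. Of 24 NRF2 and detoxification genes 11 were lower and 2 higher, and 8 were lower in all 3 contrasts. ALDH3A1, an aldehyde dehydrogenase, was undetected on the 6 resistant arrays, against 14.50 to 14.90 and 9.65 and 9.59 in the sensitive lines, at least 409-fold lower in replicates 1 and 3 and 12.3-fold in replicate 2. AKR1C3, an aldo-keto reductase, was undetected on the resistant arrays, against 12.59 to 13.83 and 10.06 and 10.53 in the sensitive lines, with bounds of 144-fold and 19.6-fold.

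Inflammatory and interferon genes held more lower than higher calls, and the counts were highest in replicate 2. Of 23 genes of the NF-kB and chemokine list 12 were called lower and 1 higher over 4 line means, 6 and 2 in replicates 1 and 3, and 17 and 2 in replicate 2. PTGS2, the inducible cyclooxygenase, was undetected on the resistant arrays and at least 13.8-fold lower, and the cytokine IL1A was at least 7.46-fold lower. CXCL5, a neutrophil chemokine, rested on replicate 2. It was at 7.09 to 7.71 in replicates 1 and 3 of the resistant lines and at 4.93 and 5.36 in replicate 2, against 7.48 to 8.45 and 14.13 and 14.23 in the sensitive lines. The difference was -3.46 over 4 line means, -0.67 without replicate 2 and at least 290-fold lower in replicate 2 alone. Of 26 interferon-stimulated genes 12 were lower and 1 higher over 4 line means, 8 and 2 in replicates 1 and 3, and 18 and 3 in replicate 2. IFI27 was undetected on the 6 resistant arrays (4.82 to 5.04), against 8.95 to 9.94 and 15 and 14.77 in the sensitive lines, at least 10.4-fold lower in replicates 1 and 3 and 472-fold in replicate 2. BST2 (tetherin) and OAS1, an enzyme that senses viral RNA, were called lower in all 3 contrasts, with a bound of 48.2-fold for BST2 in replicate 2 and of 7.79-fold for OAS1 over 4 line means. Of 16 genes of class I antigen presentation 6 were lower and 2 higher. PSMB8, an immunoproteasome subunit, was at least 20.3-fold lower in replicates 1 and 3 and differed by -1.73 in replicate 2, and HLA-B differed by -1.81 over 4 line means. HLA-B lost its call without MiaPaCa2 (adjusted p = 0.080) or Panc1 (adjusted p = 0.052).

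Signalling by TGF-beta and BMP ligands held large differences in both directions, with 4 of 16 members called higher and 7 lower over 4 line means, 5 and 8 in replicates 1 and 3 and 4 and 5 in replicate 2. TGFBR2, the type II TGF-beta receptor, was undetected on replicates 1 and 3 of the resistant lines (4.92 to 4.99) and at 10.82 and 11.22 on replicate 2, against 11.71 to 13.21 in the sensitive lines. It was at least 52.7-fold lower in replicates 1 and 3 and differed by -2.15 in replicate 2. The ligand BMP4 was undetected on all resistant arrays and at least 11.3-fold lower. ID3, an inhibitor of helix-loop-helix factors and a target of BMP signals, was higher by 1.97 in replicates 1 and 3 and at least 27.7-fold in replicate 2. SMAD4, the shared transducer that pancreatic cancers often lose, was at 10.36 to 10.76 on the resistant arrays. In the sensitive lines it was at 9.20 to 9.49 on replicates 1 and 3 and undetected on replicate 2 (4.67 and 4.65), so that it was higher by 1.38 and by at least 19.9-fold.

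A group of 3 neighbouring genes of chromosome 9 that tumours often delete together, CDKN2A, CDKN2B and MTAP, was undetected on all 6 resistant arrays. CDKN2A encodes the cell cycle inhibitor p16, CDKN2B the inhibitor p15, and MTAP an enzyme of methionine salvage. CDKN2A lay at 4.65 to 4.83 in the resistant lines, against 10.36 to 10.77 on replicates 1 and 3 and 4.72 and 4.94 on replicate 2 of the sensitive lines. Its bound was 22.5-fold in replicates 1 and 3, and in replicate 2 no array of either response detected it. CDKN2B was at least 26.5-fold lower in replicates 1 and 3, and its difference in replicate 2 was -0.37. MTAP was detected on all 6 sensitive arrays (9.31 to 10.23) and was at least 14.6-fold lower over 4 line means. CDKN1A, the inhibitor p21, was at 6.05 to 7.08 in replicates 1 and 3 of the resistant lines and at 12.18 and 11.84 in replicate 2, against 12.76 to 13.35 in the sensitive lines. GDF15, a secreted stress cytokine, differed by -8.33 in replicates 1 and 3 and by -3.30 in replicate 2.

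Neural and secretory granule genes were among the few lists with more higher than lower calls. Of 15 tested members 8 were called higher and 1 lower over 4 line means, 7 and 1 in replicates 1 and 3, and 10 and 1 in replicate 2, and 6 were higher in all 3 contrasts. SCG2, a granin of secretory vesicles, was at 13.10 to 13.69 and at 7.03 and 9.03 in the resistant lines, with 0 sensitive arrays detecting it. It was at least 156-fold higher in replicates 1 and 3 and 3.88-fold in replicate 2. TUBB2B, a neuronal beta-tubulin, was at 14.40 to 14.71 and at 10.67 and 10.73, against 6.07 to 7.75 on the sensitive arrays, a difference of 6.15 ± 0.15. STMN3, a stathmin that destabilizes microtubules, differed by 4.01 in replicates 1 and 3 and 3.95 in replicate 2. PRAME, an antigen of tumours and testis, was detected on the 6 resistant arrays and no sensitive one, at least 7.37-fold higher in replicates 1 and 3 and 30.1-fold in replicate 2. Of 9 tested HOX genes 4 were called higher and 0 lower over 4 line means, with 5 and 0 in replicates 1 and 3 and 4 and 0 in replicate 2. HOXB8 was at 12.78 to 13.02 and at 10.98 and 11.25 in the resistant lines, against 5.07 to 6.12 and 11.71 and 11.78 in the sensitive lines. HOXB8 and its neighbour HOXB2 differed by 7.50 and 5.15 in replicates 1 and 3 and by -0.63 and -0.53 in replicate 2, where they were on in all 4 lines.

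**Figure D5:**
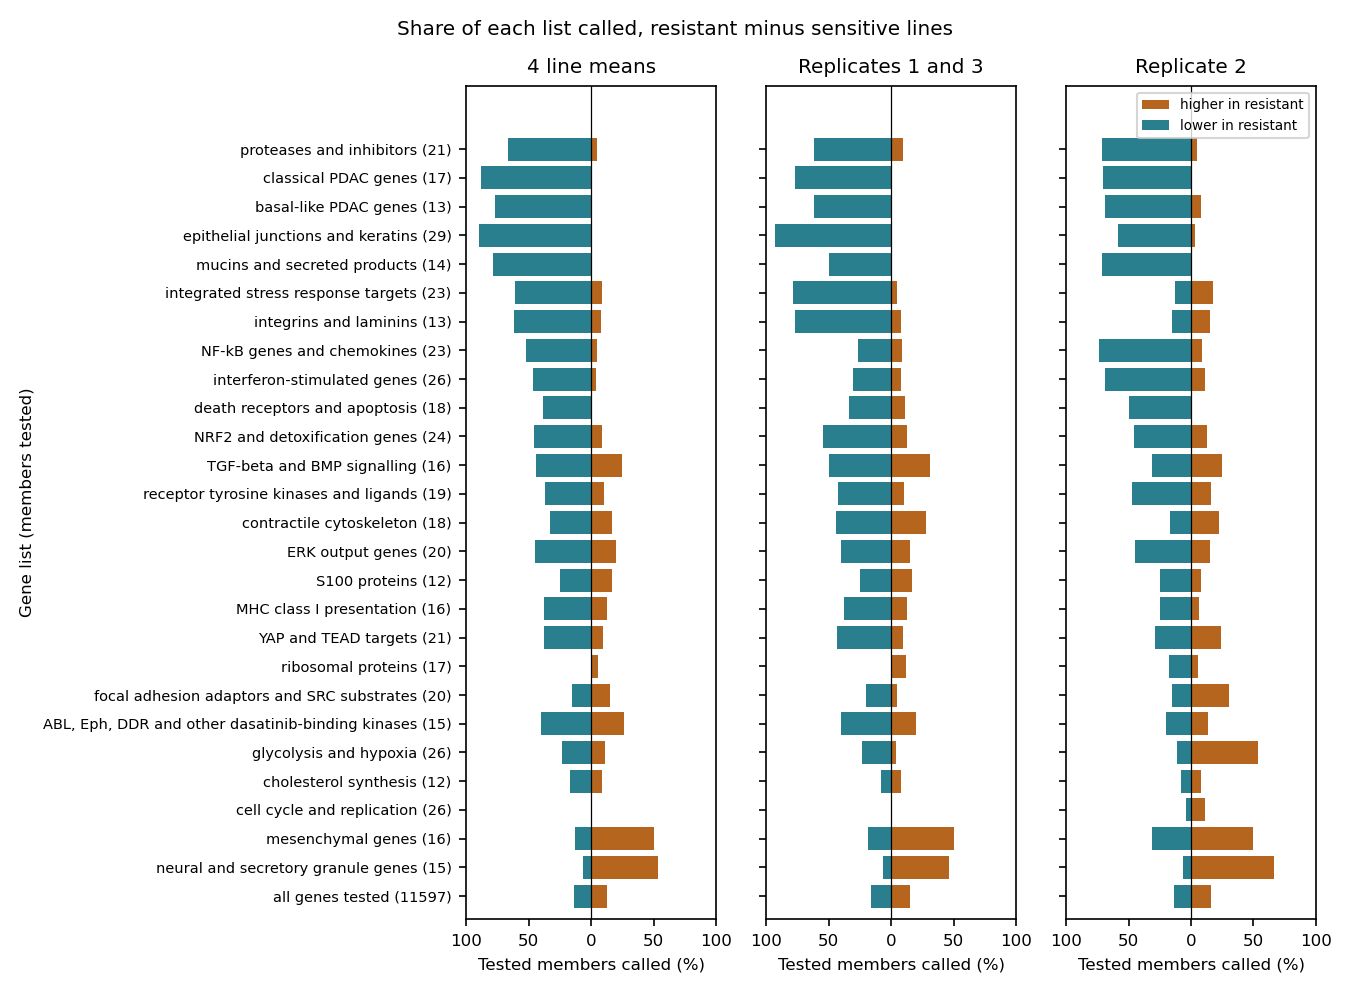
Percentage of the tested members of each list shown, all with 12 or more tested genes, called higher (brown, to the right) or lower (teal, to the left) in the resistant lines, in 4 line means, replicates 1 and 3 and replicate 2. The epithelial, classical, basal-like and mucin lists lie to the left in all 3 panels, the integrated stress response and integrin lists in the first and second panels, and a bar for all 11597 genes tested is drawn beside them.

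Few proliferation genes passed the call rule. Of 26 cell cycle and replication genes limma called 0 over 4 line means and 0 in replicates 1 and 3, where 2 and 3 had an unadjusted p under 0.05. In replicate 2, 3 were called higher and 1 lower. Their median difference was 0.61 over 4 line means. TYMS, thymidylate synthase, differed by 2.07 (limma, adjusted p = 0.081) and the helicase subunit MCM2 by 1.99 (adjusted p = 0.060). The sensitive lines themselves differed here: TYMS was at 10.85 and 11.20 on replicates 1 and 3 of Panc0403 and at 7.96 and 7.69 on those of Panc0504, against 11.93 to 12.83 on the resistant arrays. Without Panc0403 both were called (3.25 and 2.99). Both were also called without replicate 3 (limma, adjusted p = 0.044 and 0.026), and MCM2 without replicate 1 (0.039). With single arrays and the line as a random block both were called (adjusted p = 0.017 and 0.0081), also with a replicate block added (0.031 and 0.022). In those block fits the correlation of arrays of a line came out at -0.13 and -0.0098. They treat the arrays as nearly independent, so their p-values do not measure the spread between lines. MCM4, another helicase subunit, was called without Panc0403 (2.93) and with the line as a random block (adjusted p = 0.036). Of 26 glycolysis and hypoxia genes 3 were higher and 6 lower over 4 line means, 1 and 6 in replicates 1 and 3, and 14 and 3 in replicate 2. SLC2A1, the glucose transporter GLUT1, was at 9.64 to 9.93 on the resistant arrays, against 13.17 to 13.62 and 11.63 and 11.44 in the sensitive lines, and was lower in all 3 contrasts. NDRG1, a gene induced by hypoxia, was called lower in replicates 1 and 3 (-3.80) and higher in replicate 2 (1.06). Of 17 ribosomal protein genes 1 was called higher and 0 lower over 4 line means.

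The difference between the responses was called in opposite directions in the sets for 7 of the 8 genes of largest interaction, PI3 being the exception. CYBRD1, a duodenal iron reductase, was at 11.15 to 12.11 in replicates 1 and 3 and undetected in replicate 2 (5.54 and 5.87) of the resistant lines. In the sensitive lines it was undetected in replicates 1 and 3 (4.97 to 5.70) and at 11.03 and 11.64 in replicate 2. It was thus called higher in replicates 1 and 3, at least 45.2-fold, and lower in replicate 2, at least 40.4-fold, an interaction of -11.95 (limma, adjusted p = 8.24e-06). TNFRSF6B, a decoy receptor for FAS ligand, was detected on the same 4 resistant and 2 sensitive arrays, at least 27-fold higher and 8.29-fold lower. RPL39L, a ribosomal protein paralogue, was the mirror image: it was detected on replicate 2 of the resistant lines (11.45 and 11.14) and on replicates 1 and 3 of the sensitive lines (10.65 to 11.07), at least 27-fold lower and 37.2-fold higher. EPAS1, the hypoxia factor HIF-2 alpha, was at least 25.5-fold lower in replicates 1 and 3 and differed by 4.24 in replicate 2. For the phosphatase UBASH3B these values were 25-fold and 3.67. CD24, a surface glycoprotein, was at 4.77 to 5.11 and at 14.41 and 14.38 in the resistant lines, against 11.86 to 12.44 on the 6 sensitive arrays. ALDH1A1, a retinal dehydrogenase, was at 14.14 to 14.52 and at 5.17 and 4.76 in the resistant lines, against 11.37 to 11.60 and 12.45 and 12.31 in the sensitive lines. PI3, the protease inhibitor elafin, was detected on replicate 2 of the sensitive lines alone, at 14.10 and 14.16. In lines where replicate 2 of such a gene lay far from replicates 1 and 3, a mean over the 3 arrays describes no array of that line. The 4-line calls of RPL39L, EPAS1 and CYBRD1 were lost without replicate 1 or replicate 3 (0.06 and 0.18, -0.82 and -0.88, 0.39 and 0.30). That of TNFRSF6B was lost without replicate 3 (0.98), and that of PI3 without replicate 2 (0.05). With single arrays and the line as a random block, none of these genes nor UBASH3B was called, with or without a replicate block (limma, adjusted p = 0.057 to 0.383).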

How the data were processed

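Total RNA of 18 arrays was labelled as biotinylated cRNA, per the labels' protocols, and 12 arrays of 4 lines enter the comparison. The authors deposited bead intensity for 48107 probes with a detection p-value per probe and array. Which image software was used is not given in the sources used here. As an alternative, the authors' deposited log2 values (47323 probes) were used; they had been normalized within sets of arrays by a method not stated.

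The deposited intensities were background-corrected with normexp on the detection p-values, given an offset of 16, quantile-normalized over all 18 arrays and put on the log2 scale (neqc, limma 3.58.1, R 4.3.3). Of the 47323 probes that also had authors' log2 values, 30113 had 1 gene symbol in the platform annotation, 8 had several and 17202 had none. Intensity probes outside that set were given no symbol. A gene took its brightest probe among those detected (detection p under 0.01) on at least 3 of the 18 arrays, which left 11597 genes. Some tested genes, such as CSF1R and HLA-G, were thus detected on 0 resistant and 0 sensitive arrays of the comparison. Of the 142 genes the naming rule covered, 44 had more than 1 detected probe. In 1 of these, ALDH1A1, probes passed 0.5 in opposite directions over 4 line means (-0.59 for the probe used and 0.58). UBASH3B probes were at -2.79 (used) and 0.39, and TGFBR2 probes at -5.27 (used), -4.83 and -0.58. MPZL2 probes were at -6.79 (used), -3.04, -2.61 and -1.32, and ERBB3 probes at -4.08 (used), -1.74 and -0.87. For PSMB8 they were at -3.90 (used), -3.30, -3.13 and -0.31, and for CD24 at -4.07 (used) and -1.08. In other genes a probe not used differed more, as in VIM (9.26, against 8.03 for the probe used). XIST and Y-linked probes were left out. Arrays were averaged per line and the lines compared with limma (lmFit, eBayes, two-sided), with Benjamini-Hochberg adjustment over all genes tested. The steps were tested on simulated data with independent noise on each array, no spread between lines and a minimum difference of 0.5. That test does not cover the spread between lines or the broad replicate 2 difference of these arrays. Intensity saturates and background correction stretches dim probes, so large differences depend on the floor; the number of arrays limits the precision.

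The lines and the 40 gene lists (769 genes, 549 tested) were chosen with earlier results of these data known. The rule for naming genes covered the 8 higher and 8 lower genes with the largest smaller difference of both sets, the 3 members of each list with the largest difference over 4 line means, genes marked as leads in the lists, and the 4 higher and 4 lower genes of largest interaction; not all of these are described. ACTA2, CLDN3, CLDN7, COL6A1, COL6A2, COL6A3, CRB3, DDR2, DSG2, DSP, EHF, EPHA4, ITGA5, NT5E, PTK2, S100A4, SPINT2, SPRY2, SPRY4 and, beyond their use as markers, KRT8, KRT18 and KRT19 were named after their values were seen. Replicate numbers did not pair resistant with sensitive samples: deviations of same-numbered arrays across the responses correlated at r = -0.0088 to 0.026. Within a slide, array 2 of both lines went together (r = 0.990 to 0.991 between their values). Alternatives covered the offset, background correction, the authors' values, the arrays normalized together, detection filters, the probe rule, replicates and lines left out, blocks and moderation. The result of 1 gene list is not reported here.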

Additional observations from a re-analysis of the deposited data

Results flagged for a closer look

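In 4 genes 1 array lay apart from the other 5 of its response, with a gap past Dixon's critical share of the group's range, which chance gives in about 1 of 20 groups. The check ran over each response of the top higher and lower genes, the genes of largest interaction and the lead genes. With so many groups, several such gaps arise by chance alone. VIM was at 14.62 in Panc1 replicate 2, below the other resistant arrays, and LAD1 was at 5.40 in Panc1 replicate 2, above them. YES1 was at 8.30 in Panc0403 replicate 1, above the other sensitive arrays, and ABL1 was at 8.72 in Panc0403 replicate 2, below them.

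The difference between resistant and sensitive lines itself differed between replicate 2 and replicates 1 and 3 for 4311 genes by limma's test of the interaction. Of the named genes, it was 10.74 for RPL39L, 10.18 for EPAS1, 9.69 for UBASH3B and 9.35 for CD24, in each case with the more positive difference in replicate 2. It was -11.95 for CYBRD1, -10.24 for ALDH1A1, -10.05 for TNFRSF6B and -9.46 for PI3.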

How the results depend on the processing

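Slide and response cannot be told apart under any setting. Over 4 line means, 3075 genes were called, and 2075 to 3599 under the other settings that kept the minimum difference. Without that minimum the count was 5417, and 6686 in replicate 2 against 3454. The calls over 4 line pairs were 1346, and 296 to 2660 with 1 replicate left out. In replicates 1 and 3 the count was 3599, and 1673 to 4132 with 1 line left out. The lower share of the 4 line pair calls was 53.9%, 61.7% with no background correction and 64.7% with the authors' log2 values. The numbers do not pair resistant with sensitive arrays. With the replicate block 4 line pairs gave 1565 calls. A fit to single arrays with line as random block gave 2984, or 2972 with the replicate block. There the correlation of arrays of a line was -0.13 and -0.0098, so those fits treat arrays as nearly independent. Among named genes, 5 values reversed, 80 lost and 21 gained a call, and 2623 stayed on their side of the call rule. Those 2623 include uncalled values that changed sign, such as COL1A1 (0.22 over 4 line means and -0.92 without replicate 2). Among values called before or after, sign changed with 1 replicate left out for RPL39L (-5.25 to 0.18, and 0.056 without replicate 1), ALDH1A1 (-2.33 to 2.83), PI3 (-4.69 to 0.047) and SNAI2 (-2.22 to 1.23). Genes below background have only a bound in the dim group.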

Other observations

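Several further gene groups held differences in both sets of arrays. Of 21 proteases and inhibitors 14 were called lower and 1 higher over 4 line means, with 10 lower in all 3 contrasts. SERPINB5, the serpin maspin, was detected on 0 resistant arrays (4.79 to 4.98) against 10.55 to 12.31 on the sensitive arrays, at least 50.8-fold lower, and MMP7, matrilysin, was at least 65.4-fold lower in replicates 1 and 3. Of 18 death receptor and apoptosis genes 7 were lower and 0 higher over 4 line means. BIK, which promotes apoptosis, was detected on 0 resistant arrays and was at least 17-fold lower, and the death receptor TNFRSF21 differed by -3.77 ± 0.20. Of 21 YAP and TEAD targets 8 were lower and 2 higher, led by F3, tissue factor, which was at least 31.7-fold lower.

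Among 18 genes of the contractile cytoskeleton 3 were higher and 6 lower. TPM2, a tropomyosin, was at 12.91 to 13.12 and at 14.17 and 14.23 in the resistant lines, against 8.51 to 9.22 and 7.79 and 8.08 in the sensitive lines. Of 10 ABC transporters 3 were higher and 3 lower: ABCA3, a lipid transporter, was at least 5.70-fold higher, and ABCG1, which exports cholesterol, was at least 15.8-fold lower. Of 6 metallothioneins 5 were higher and 1 lower over 4 line means and in replicates 1 and 3, and 2 were higher and 1 lower in replicate 2. MT1M was detected on replicates 1 and 3 of the resistant lines alone, at 10.54 to 10.98, and MT1F was at least 22.4-fold lower in replicates 1 and 3 and differed by -1.13 in replicate 2.

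In smaller lists a share rests on few genes. Over 4 line means 12.7% of all genes were called higher and 13.8% lower. The shares were 16.7% and 25% for S100 proteins, 14.3% and 28.6% for SRC regulators and 8.33% and 16.7% for cholesterol synthesis. Of 12 S100 proteins 2 were higher and 3 lower, and S100A14, undetected on the resistant arrays, was at least 4.57-fold lower. Of 7 SRC regulators 1 was higher and 2 lower: CBL, a ubiquitin ligase, differed by 1.08 (0.26 without replicate 2, and not called in 5 other settings), and CBLB, its paralogue, by -1.95 (not called without MiaPaCa2). Of 12 cholesterol synthesis genes 1 was higher and 2 lower, with LSS, lanosterol synthase, at 1.76. Of 2 cancer-testis genes 1 was higher, PRAME, and of 3 fibroblast markers 1, COL1A2, which was not called in replicate 2. Limma called 0 of 2 endothelial and 0 of 2 leukocyte markers, with 1 of each at an unadjusted p under 0.05. The acinar marker PRSS1 was undetected on the resistant arrays and at least 2.29-fold lower, a call lost without replicate 2, without either resistant line and with no detection filter.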
